A study of Mus musculus with 2 samples.

Results

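A small population of *Spint1*- and *Mgl2*-expressing cells, most of them with several macrophage genes, was picked out of the leukocytes of 2 mouse melanoma samples. The samples were 1 library of single-cell RNA from untreated hosts and 1 from hosts depleted of natural killer (NK) cells. The members were chosen by their UMI counts of marker genes. A cell was taken when it held at least 1 unique molecular identifier (UMI, 1 captured mRNA molecule) of at least 4 of 8 genes (*Cdh1*, *Spint1*, *Mgl2*, *Ccl17*, *Klrb1b*, *Htra3*, *H2-DMb2* and *Itgax*), with *Cdh1* or *Spint1* among them. It also had to hold 0 UMIs of 7 genes that mark other leukocytes or other macrophages (*Ccr7*, *Xcr1*, *Cd209a*, *Mmp13*, *Lyve1*, *Cd3e* and *Ncr1*). Of the 9798 cells that passed the quality limits, 229 met this rule, 161 of 5292 in the control library and 68 of 4506 in the NK cell-depleted library. They are called *Spint1 Mgl2* cells below. Their levels of the 8 genes, and their contrast with other cells, follow from how they were picked and are given as a description.

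Both libraries held CD45+ leukocytes sorted on day 4 from tumors of *Braf*-mutant melanoma cells lacking the *Ptgs* genes, which encode the cyclooxygenases that start prostaglandin synthesis. The hosts were C57BL/6 mice, 8 weeks old in both groups. Control hosts received no antibody. NK cell-depleted hosts received 200 µg of anti-NK1.1 (clone PK136) and 30 µg of anti-asialo GM1 per mouse on day 0 and again on day 2. The tumor genotype is shared by both groups, and its sample annotation reads wild type although the titles and the design name the knockout. Tumors were pooled within each group and some melanoma cells were added to the sorted leukocytes, so each group is 1 pool and 1 library. No difference between the libraries therefore has a replicate check, no test was made, and the intervals given are 95% intervals of counting error only.

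Macrophages that arise from blood monocytes can take up an antigen-presenting program, in which MHC class II molecules display peptides to CD4+ T cells. *Mgl2* encodes a galactose-type lectin and *Ccl17* a chemokine for CCR4-bearing T cells, and both are used as markers of IL-4-exposed macrophages and of some dendritic cells. *Cdh1* encodes the adhesion protein E-cadherin and *Spint1* a membrane-bound inhibitor of serine proteases, genes better known from epithelium. Type I interferons and IFN-γ, which NK cells secrete, each induce large sets of genes in macrophages.

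*Spint1* and *Mgl2* were detected in more of these cells than *Cdh1* or *Ccl17*. The rule asked for *Cdh1* or *Spint1*, so the 108 and 43 cells without *Cdh1* had to hold *Spint1*. *Spint1* was detected in 93.8% of the cells from control hosts and 95.6% of those from depleted hosts, and *Mgl2* in 83.2% and 91.2%. *Itgax*, which encodes the integrin CD11c, was found in 87.6% and 95.6%, and the serine protease gene *Htra3* in 68.3% and 72.1%. *H2-DMb2*, a chaperone of peptide loading onto MHC class II, was detected in 61.5% and 61.8% (its near-identical copy *H2-DMb1* makes its count uncertain), and the C-type lectin receptor gene *Klrb1b* in 49.7% and 61.8%. *Cdh1* was detected in only 32.9% and 36.8% (53 and 25 cells) and *Ccl17* in 11.8% of the cells of both (19 and 8 cells). In T cells, which served as the background for free RNA, the shares were at most 3.72% for any of the 8 genes. T cells were shallower, with a median of 2299 and 2572 UMIs against 8000 and 9216 in the *Spint1 Mgl2* cells. Thinned to 2000 UMIs per cell, *Spint1* was still found in 35.4% and 48.5%, *Mgl2* in 63.3% and 66.2%, *Cdh1* in 10.8% and 19.1%, and *Ccl17* in 5.06% and 5.88%. Both *Cdh1* and *Spint1* were seen in 43 cells from control hosts and 22 from depleted hosts.

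The cells varied in how many of the 8 genes they held. In the control library 68 cells held 4 of the genes, 54 held 5, 30 held 6, 7 held 7 and 2 held all 8. In the NK cell-depleted library the counts were 22, 16, 21, 8 and 1. The excluded genes removed 146 of 307 otherwise eligible cells (47.6%) of the control library and 81 of 149 (54.4%) of the other, mainly through *Cd209a*, which was present in 120 and 69 of them. Cells just inside the limit, with 4 genes, were compared with the 53 and 18 cells just outside it, with 3. Levels in CPM (UMIs summed over the cells and scaled to 1000000 in all) of *Cd74*, the invariant chain of MHC class II, were 10510 inside and 7693 outside in the control library, and 6901 and 5478 in the NK cell-depleted library. *Apoe*, an apolipoprotein gene of many tissue macrophages, was at 1062 CPM inside and 1975 outside in the first library, and at 685 and 1805 in the second. *Mgl2* itself was at 571 and 276 CPM, and at 545 and 368.

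Comparison populations were picked by gene rules too. Other macrophages held at least 4 of 8 macrophage genes, among them *Adgre1*, *Csf1r*, *C1qa*, *C1qb*, *C1qc*, *Fcgr1* and *Mertk*, and no *Ccr7*, *Xcr1*, *Cd209a*, *Cd3e* or *Ncr1*. Cells called *Cd209a* dendritic cells held *Cd209a* and at least 1 of *Flt3*, *Zbtb46* and *Dpp4*, and T cells held at least 2 of *Cd3e*, *Cd3d*, *Cd3g* and *Trac*. Levels of these genes in those populations are therefore raised by the choice. The *Spint1 Mgl2* cells were chosen without the macrophage genes named here and without *Flt3*, *Zbtb46* and *Dpp4*. Their rule did use *Mgl2*, *Ccl17*, *H2-DMb2* and *Itgax*, and it barred *Cd209a*, *Ccr7*, *Xcr1*, *Mmp13* and *Lyve1*.

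Most of the cells held several macrophage genes, mostly at lower levels than in other macrophages. *Csf1r*, the receptor for the macrophage growth factor CSF1, was at 456 CPM in the *Spint1 Mgl2* cells from control hosts and 499 CPM in those from depleted hosts, against 531 and 517 CPM in other macrophages and 162 and 173 CPM in *Cd209a*-bearing dendritic cells. The complement gene *C1qa* was at 938 and 1335 CPM, with 1624 and 1577 in other macrophages, 107 and 61.9 in the dendritic cells and 294 and 73.9 in T cells. The monocyte chemokine receptor gene *Ccr2* was at 1881 and 1765 CPM, and 160 and 67 of the cells held at least 1 UMI of it. *Adgre1*, which encodes F4/80, was low at 102 and 92.9 CPM against 477 and 401, and *Apoe* was at 805 and 334 CPM against 4722 and 3226. *Mertk* was at 13.7 and 19.6 CPM against 68.1 and 66.6, *Fcgr1* at 110 and 55.4 against 320 and 289, and *Cd68* at 221 and 202 against 360 and 338. Of the 12 genes of the macrophage list, 0 were at least 2-fold higher than in other macrophages. In the control library 5 were at least 2-fold lower, and in the depleted library 6. At least 3 of 8 macrophage genes were detected in 135 (83.9%) and 55 (80.9%) of the cells. At least 4, the number asked of other macrophages, were detected in 110 (68.3%) and 51 (75.0%). These counts are not given for the *Cd209a* dendritic cells, which were shallower, with medians of 6139 and 6450 UMIs. Summed over the macrophage list, the level was 8459 and 7638 CPM, between the 17453 and 16120 of other macrophages and the 2584 and 2724 of the *Cd209a* dendritic cells.

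Markers of other cells were rare, with exceptions that include genes of conventional dendritic cells. Summed over that list, the level was 160 and 297 CPM, above the 47.3 and 67.7 of other macrophages. It was below the 961 and 956 CPM of *Cd209a* dendritic cells. The dendritic cell growth factor receptor gene *Flt3* was at 3.80 and 8.15 CPM, against 102 and 166 CPM in *Cd209a* dendritic cells. At least 1 of *Flt3*, *Zbtb46* and *Dpp4* was nevertheless detected in 20 (12.4%) of the cells from control hosts and 19 (27.9%) of those from depleted hosts. *Cd207*, the gene of the Langerhans cell lectin langerin, gave 2 and 9 UMIs in all. Epithelial genes summed to 1 and 0 UMIs and melanoma genes to 1 and 1, so the *Cdh1* and *Spint1* UMIs came without other epithelial transcripts. B cell genes summed to 60.1 and 21.2 CPM and neutrophil genes to 22.1 and 6.52 CPM. Counting T, NK, B, neutrophil and melanoma markers together, 45 (28.0%) and 12 (17.6%) of the cells held at least 2 UMIs of them, and their part in the differences below was examined by leaving those cells out.

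**Figure D1:**
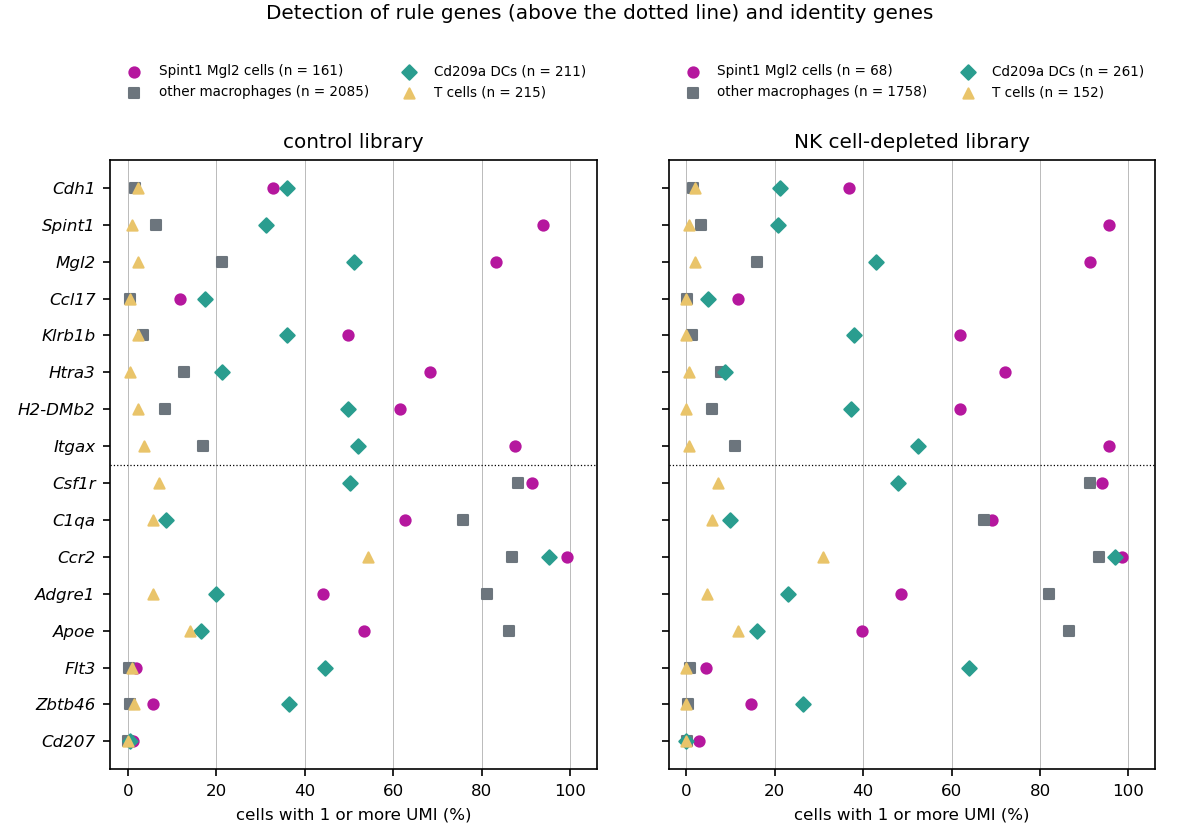
Share of cells (percent, x axis) with at least 1 UMI of each gene in *Spint1 Mgl2* cells, other macrophages, *Cd209a* dendritic cells and T cells, with 1 point per library. *Spint1* was found in 93.8% and 95.6% of the *Spint1 Mgl2* cells and *Ccl17* in 11.8% of each library.

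The share of *Spint1 Mgl2* cells was higher in the control library. They made up 3.04% of its cells (Clopper-Pearson 95% interval 2.60 to 3.54) and 1.51% (1.17 to 1.91) of those of the depleted library, a ratio of 2.02 (1.51 to 2.72). NK cells themselves numbered 528 in the control library and 0 in the depleted one, which alone changes the denominator. With NK cells taken out of it, the ratio was 2.24. Other macrophages made up 39.4% and 39.0% of the libraries, a ratio of 1.01, and *Cd209a* dendritic cells went the other way, with 211 and 261 cells and a ratio of 0.688 (0.571 to 0.828). Thinned to 2000 UMIs per cell, 31 of 4084 and 15 of 3567 cells met the rule, and the ratio was 1.81 with an interval (0.946 to 3.60) that includes 1. Thinned to 4000 UMIs, it was 1.97 (1.35 to 2.92). Without cells that held *Ly6c2* or *Vcan*, genes of monocytes, 123 and 62 cells remained and the ratio was 1.69 (1.23 to 2.33).

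**Figure D2:**
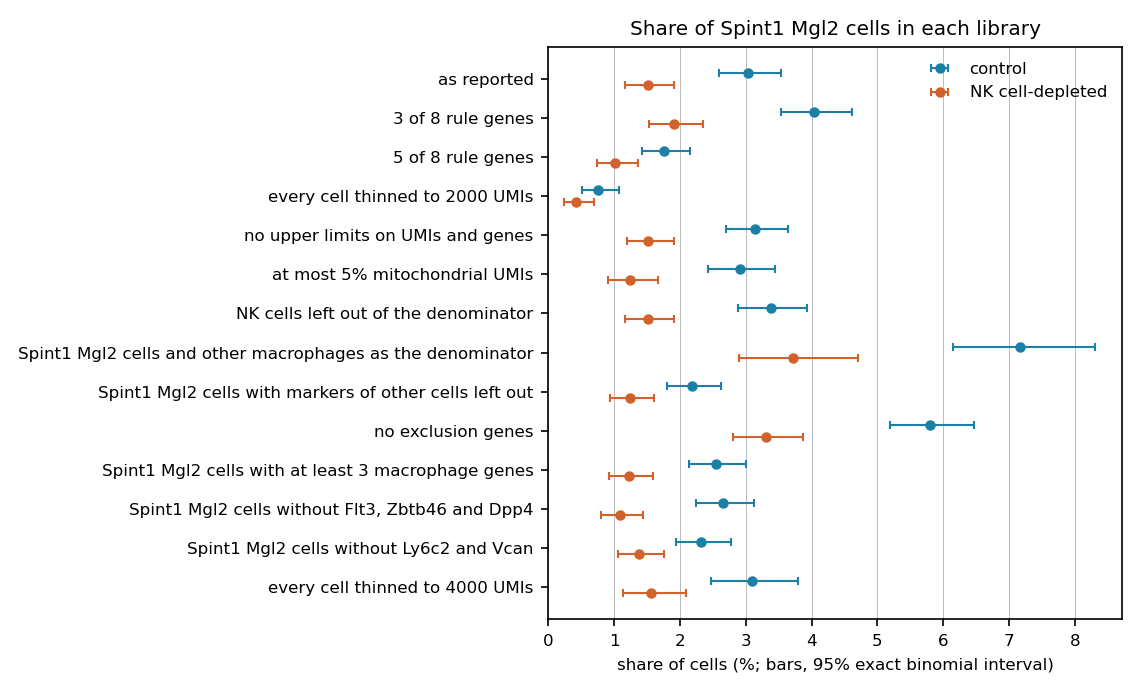
*Spint1 Mgl2* cells as a share of cells (percent) in the control and NK cell-depleted libraries under each way of counting, with 95% intervals of counting error. The control library is the higher under every setting, with ratios from 1.69 to 2.45.

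The transcripts of the 8 genes were spread unevenly among the cells. *Spint1* had a median of 2.00 UMIs per cell in both libraries and a maximum of 7 and 8. *Mgl2* had a median of 4.00 among control cells and 6.00 among the others, with maxima of 32 and 35. The *Spint1 Mgl2* cells held 35.2% and 29.7% of all *Spint1* UMIs of their libraries and were 3.04% and 1.51% of the cells. The rule picked cells that held *Spint1*, which raises this share. For *Cdh1* the share was 16.9% in the control library, and *Cd209a* dendritic cells held the larger shares of 45.5% and 53.7%. *Ccl17* was concentrated in a few cells. Its 138 UMIs in the control library lay in 19 cells with 73.9% of them in 5 cells, and its 211 UMIs in the NK cell-depleted library lay in 8 cells, of which 1 held 159. *Ccl22*, the neighboring CCR4 ligand gene, showed 30 UMIs in 8 cells and 83 UMIs in 3 cells, with 81 in a single cell.

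MHC class II was high throughout. Every *Spint1 Mgl2* cell held the β-chain gene *H2-Ab1*, from 4 to 159 UMIs with a median of 55.0 in the control library, and from 5 to 138 with a median of 57.0 in the other. *Cd74* ranged from 11 to 209 UMIs per cell (median 83.0) and from 5 to 162 (median 72.0). The 12 MHC class II genes summed to 34072 and 31799 CPM, close to the 33861 and 33177 of *Cd209a* dendritic cells and above the 17720 and 18155 of other macrophages.

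**Figure D3:**
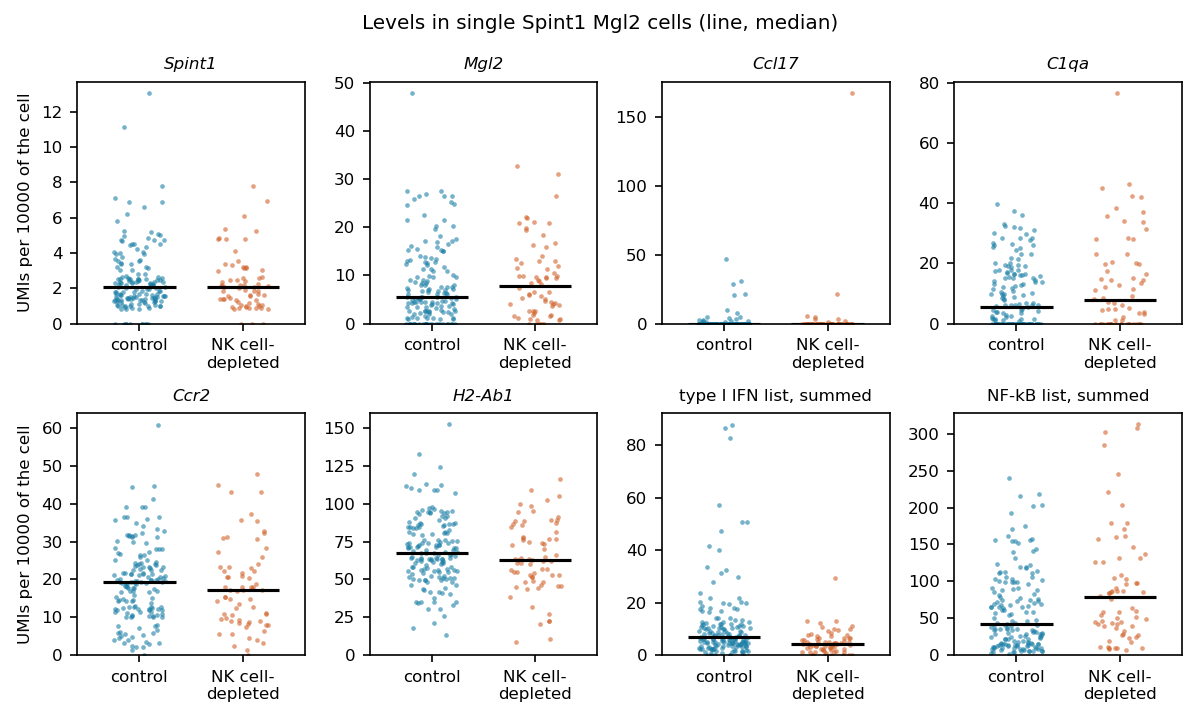
UMIs per 10000 in single *Spint1 Mgl2* cells of each library for 6 genes and for the summed type I interferon and NF-κB lists, with a line at the median. The median of the type I interferon sum was 6.86 in the control library and 4.25 in the other, and that of the NF-κB sum 41.9 and 78.3.

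Set against other macrophages, 141 of 10295 genes (1.37%) were at least 2-fold higher in *Spint1 Mgl2* cells in both libraries and 272 (2.64%) at least 2-fold lower, with 5 CPM added to each side. Among the higher ones was *Il1r2*, the decoy receptor for IL-1, at 212 and 442 CPM against 23.1 and 21.7. The fusion-protein genes *Dcstamp* and *Ocstamp*, which act in joining precursors of osteoclasts and giant cells, were at 58.6 and 192 CPM against 8.81 and 5.47, and at 35.8 and 37.5 against 4.64 and 1.88. *H2-Ob*, a regulator of peptide loading, was at 38.8 and 44.0 CPM against 4.32 and 4.19. *AA467197* was at 491 and 965 CPM against 93.6 and 72.9, and the ribonuclease gene *Ear2* at 457 and 518 against 116 and 103. *Klrd1*, which encodes the NK receptor CD94, was at 36.5 and 42.4 CPM against 2.80 and 0.94, and at 219 and 239 CPM in the *Cd209a* dendritic cells. The others of the 15 highest were *Ramp3*, *Adgrg5*, *2900026A02Rik*, *P2ry10*, *Nectin1*, *Gpr171*, *Il18rap* and *Rtn1*, along with the rule genes. Several were higher still in *Cd209a* dendritic cells, with *H2-Ob* at 68.0 and 78.6 CPM, *P2ry10* at 94.3 and 173 and *Gpr171* at 103 and 77.0. *Rtn1*, *Adgrg5*, *Nectin1* and *Il18rap* were higher there too, and *Il1r2* was at 230 and 282. *AA467197*, *Ear2*, *Dcstamp*, *Ocstamp*, *Ramp3* and *2900026A02Rik* were lower there than in the *Spint1 Mgl2* cells.

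Genes of resident macrophages were among the lower ones. The rule barred *Lyve1* and *Mmp13*, which other macrophages were free to hold. In the control library, *Lyve1* was present in 1 and *Mmp13* in 20 of the 307 otherwise eligible cells. In the NK cell-depleted library they were present in 0 and 6 of 149. The part of this choice in the levels below was not tested. *Retnla*, an IL-4-induced secreted protein, was at 16.0 and 35.9 CPM against 1151 and 1315 in other macrophages. The folate receptor gene *Folr2*, a mark of tissue-resident macrophages, was at 5.33 and 1.63 CPM against 180 and 159. *Pf4*, a chemokine gene, was at 151 and 78.2 CPM against 2808 and 945, and *Ccl7*, a ligand of CCR2, at 121 and 163 against 1260 and 1240. *Ly6c2*, the gene of the monocyte surface protein Ly6C, was at 32.7 and 6.52 CPM against 392 and 630. *Gas6*, *Cbr2*, *Igf1*, *Ednrb* and *Cd36* were lower as well. The resident macrophage list summed to 1066 and 1084 CPM against 6856 and 5307, the lipid-associated list to 4351 and 4861 against 10381 and 10127, and the chemokine list to 3659 and 4563 against 11489 and 10874. The cell cycle list was the other way, at 518 CPM in both libraries against 168 and 107. *Cd209a* dendritic cells were nearer, at 428 and 398 CPM, and T cells were at 804 and 437. *Mki67*, a marker of cycling cells, was detected in 13% and 13.2% of the cells, or in 6.96% and 7.35% after thinning to 2000 UMIs, when it was found in 1.92% and 1.29% of other macrophages. Only a few cells carried the list, with 45.8% and 68.9% of its UMIs in 5 cells of each library.

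The control and NK cell-depleted libraries were then compared within the *Spint1 Mgl2* cells. Of the 7558 genes whose UMIs in both libraries added up to 20 or more, 763 (10.1%) were at least 1.5-fold higher in the control library and 950 (12.6%) at least 1.5-fold lower, with 0.5 UMI added. These shares are the background for the lists below. The interval of counting error left out 1 for 302 of the higher and 456 of the lower genes. Such intervals treat UMIs of the same cell as independent and leave out variation among cells, so these counts can be too high. The median log2 ratio over all genes was −0.07, and in other macrophages −0.05. The sums rest on 1314323 and 613628 UMIs.

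Of the lists with at least 5 measured genes, the type I interferon response had the highest median ratio of the control to the NK cell-depleted library. Of its 27 genes 20 reached 20 UMIs, and 19 of these were at least 1.5-fold higher in the control library and 0 lower, 17 of them beyond counting error. The median log2 ratio was 1.54, whereas in other macrophages it was −0.10. Summed over the list, the level was 1137 CPM in the control and 491 CPM after NK cell depletion, a ratio of 2.32 (2.05 to 2.63). In other macrophages the sums were 3333 and 3453 CPM and in *Cd209a* dendritic cells 1954 and 1967, so the *Spint1 Mgl2* cells were below both in each library. T cells, which express these genes themselves, were at 2006 and 1165 CPM. The difference between *Spint1 Mgl2* cells and other macrophages was not tested.

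*Slfn5*, a member of the Schlafen family, had 211 UMIs in the control and 34 after NK cell depletion, a ratio of 2.90 (2.01 to 4.29), while other macrophages held it at 411 and 455 CPM. *Isg15*, a ubiquitin-like modifier, had 64 and 8 UMIs, a ratio of 3.74 (1.79 to 9.02). *Ddx58*, the gene of the RNA sensor RIG-I, had 49 and 7 UMIs, a ratio of 3.27 (1.47 to 8.55). Each of these ran in the direction of the list. *Xaf1*, a pro-apoptotic gene, had 44 and 2 UMIs, a ratio of 10.3 (2.68 to 87.5). *Irf7*, the transcription factor that amplifies interferon production, had 29 and 4 UMIs, a ratio of 3.38 (1.19 to 13.3). *Bst2*, the gene of the viral restriction factor tetherin, had 221 and 58 UMIs, a ratio of 1.78 (1.33 to 2.42). *Oas2* was the exception at 24 and 11 UMIs, a ratio of 1.02 (0.480 to 2.30).

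The antiviral gene *Rsad2* had 66 and 10 UMIs, a ratio of 3.08 (1.57 to 6.72), but was seen in 8.07% and 7.35% of the cells. The translation inhibitor gene *Ifit1* had 19 and 2 UMIs, a ratio of 4.44 (1.07 to 39.3). Over the whole list, 155 (96.3%) and 61 (89.7%) of the cells held at least 1 UMI, and 96 (59.6%) and 30 (44.1%) held 5 or more. The 5 cells with the most UMIs of the list held 22.3% and 19.9% of it, and without them the median log2 ratio was 1.25. The ranges of the libraries overlapped widely, up to 88.0 UMIs per 10000 in the control and 29.4 in the other. The near-identical *Ifit* copies are uncertain because reads may be divided between them.

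The 250 bases before the transcription start of 4 genes of the list are shown because such genes carry interferon-stimulated response elements in the textbook account. The sequences are from RefSeq on GRCm38.p6, written 5′ to 3′ on the strand of the gene, and capitals mark matches to GAAANNGAAA or to its reverse complement TTTCNNTTTC. The windows are chr4:156200819-156201068 for *Isg15* and chr12:26456453-26456702 for *Rsad2* on the minus strand, and chr19:34640639-34640888 for *Ifit1* and chr19:34583279-34583528 for *Ifit3* on the plus strand.
Isg15: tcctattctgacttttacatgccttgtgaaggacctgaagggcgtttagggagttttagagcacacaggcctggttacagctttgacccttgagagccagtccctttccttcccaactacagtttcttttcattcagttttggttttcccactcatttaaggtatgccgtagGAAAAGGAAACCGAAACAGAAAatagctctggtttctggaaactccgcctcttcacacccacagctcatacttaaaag
Ifit1: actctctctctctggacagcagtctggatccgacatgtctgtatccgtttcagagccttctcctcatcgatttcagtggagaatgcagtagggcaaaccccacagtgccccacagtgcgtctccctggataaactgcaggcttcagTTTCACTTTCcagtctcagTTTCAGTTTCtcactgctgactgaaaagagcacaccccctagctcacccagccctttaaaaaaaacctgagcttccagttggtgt
Ifit3: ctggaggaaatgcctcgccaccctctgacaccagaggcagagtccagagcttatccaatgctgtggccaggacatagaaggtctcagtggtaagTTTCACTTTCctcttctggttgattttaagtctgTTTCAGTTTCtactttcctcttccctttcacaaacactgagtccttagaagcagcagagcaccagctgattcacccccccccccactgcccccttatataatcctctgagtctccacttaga
Rsad2: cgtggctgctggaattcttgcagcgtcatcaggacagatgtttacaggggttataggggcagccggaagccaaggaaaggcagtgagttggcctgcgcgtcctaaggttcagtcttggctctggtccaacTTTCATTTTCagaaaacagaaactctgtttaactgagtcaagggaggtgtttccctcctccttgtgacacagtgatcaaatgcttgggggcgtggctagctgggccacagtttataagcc

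In *Isg15* 3 overlapping matches spanned bases 78 to 57 before the start. *Ifit1* held 2 matches, at 104 to 95 and 85 to 76, *Ifit3* 2 at 156 to 147 and 122 to 113, and *Rsad2* 1 at 120 to 111. A window was given for 20 of the 27 genes of the list, and 10 of those 20 held the motif on either strand. Counted by windows, it was in 10 of 22 of the list (45.5%) and in 978 of 32851 of all genes (2.98%). A match describes the letters in the window and shows no binding.

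**Figure D4:**
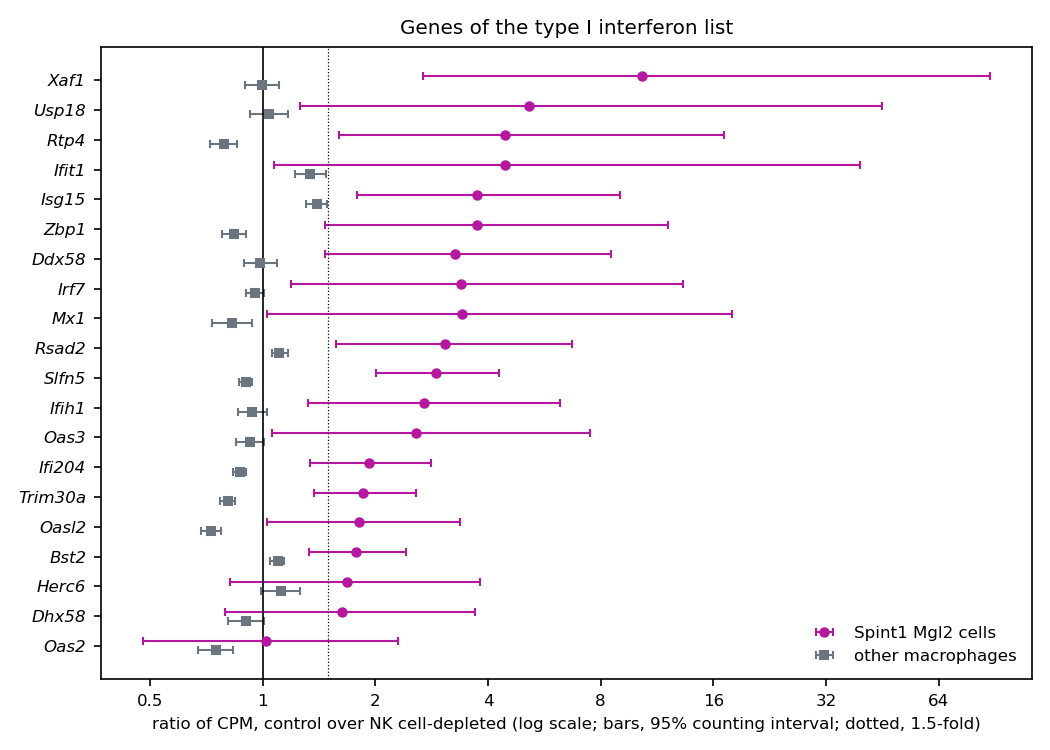
Ratio of the control to the NK cell-depleted library (log axis, with 95% intervals of counting error) for the 20 type I interferon genes with at least 20 UMIs, in *Spint1 Mgl2* cells and in other macrophages. In the *Spint1 Mgl2* cells 19 of the 20 lie past the dotted 1.5-fold line, and *Oas2* is at 1.02.

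IFN-γ-response genes leaned the same way to a lesser degree. Of 22 measured, 11 were at least 1.5-fold higher in the control library and 2 lower, with a median log2 ratio of 0.63 against 0.20 in other macrophages and a summed ratio of 1.51 (1.37 to 1.65). The transcription factor gene *Irf1* had 36 and 6 UMIs, a ratio of 2.80 (1.17 to 8.13), and the GTPase gene *Irgm1* 36 and 4, a ratio of 4.20 (1.51 to 16.3). *Gbp7* had 100 and 25 UMIs, a ratio of 1.87 (1.20 to 3.02), with the caution that *Gbp* genes are close copies. The list shares genes and inducers with the type I list.

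Antigen-presentation genes differed little between the libraries. Of the 12 MHC class II genes 1 was at least 1.5-fold higher in the control library and 1 lower, and the median log2 ratio was −0.10. *Ciita*, the master regulator of the class II genes, had 370 and 107 UMIs, a ratio of 1.61 (1.30 to 2.02), and *Cd74* was at 10838 and 7969 CPM, a ratio of 1.36 (1.32 to 1.41). The chains themselves were near parity, with *H2-Aa* at 6310 and 6804 CPM, *H2-Ab1* at 6842 and 6563 and *H2-Eb1* at 4533 and 4865. *H2-Oa*, which dampens peptide exchange, had 14 and 15 UMIs, a ratio of 0.436 (0.195 to 0.968). For MHC class I the median log2 ratio was 0.33, and after thinning to 2000 UMIs 0.01. *H2-K1* was at 1030 and 1214 CPM and *B2m*, the light chain, at 1881 and 2180, while the peptide transporter gene *Tap1* was at 133 and 89.6 CPM.

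Most costimulatory and checkpoint genes were lower in the control library. Of 10 measured, 0 were at least 1.5-fold higher and 6 lower, and the median log2 ratio was −0.79. It was −0.16 in other macrophages and −0.11 in *Cd209a* dendritic cells. The list summed to 913 and 1418 CPM in the *Spint1 Mgl2* cells, 1060 and 1299 in other macrophages and 1321 and 1903 in the dendritic cells. *Cd80*, a ligand of CD28 and CTLA-4, was at 49.5 CPM in the control and 99.4 CPM after NK cell depletion, a ratio of 0.497 (0.345 to 0.717). *Cd83*, a surface protein of mature antigen-presenting cells, was at 241 and 535 CPM, a ratio of 0.451 (0.385 to 0.528), and was detected in 45.3% and 69.1% of the cells. *Cd40* had 18 UMIs in each library, a ratio of 0.467 (0.229 to 0.951). *Cd274*, the gene of PD-L1, had 28 and 23 UMIs, and its interval (0.316 to 1.03) includes 1. *Cd86* was at 118 and 155 CPM, a ratio of 0.762 (0.586 to 0.994), and its log2 ratio turned to 0.08 after thinning to 2000 UMIs. Without the cells holding *Flt3*, *Zbtb46* or *Dpp4* the median of the list was −0.44, and with 3 or 5 of the 8 genes required it was −0.47 or −0.52. Without the 5 cells richest in it, the log2 ratio of *Cd40* went from −1.10 to −0.24. Taking 5 cells from each library removes a larger share of the 68 depleted cells than of the 161 control cells. That alone can push such ratios toward the control library, here and below.

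Most inflammatory cytokine genes were lower in the control library as well, 6 of 8 by at least 1.5-fold and 0 higher, with a median log2 ratio of −0.88. The median was −0.03 in other macrophages and −0.57 in *Cd209a* dendritic cells. *Tnf* had 47 and 48 UMIs, a ratio of 0.457 (0.299 to 0.698). *Il1rn*, the IL-1 receptor antagonist, was at 138 and 293 CPM, a ratio of 0.472 (0.382 to 0.583), and *Ptgs2*, host cyclooxygenase 2, at 269 and 517 CPM, a ratio of 0.521 (0.447 to 0.609). *Vegfa*, the endothelial growth factor, was at 145 and 256 CPM, a ratio of 0.565 (0.455 to 0.703). *Il6* had 6 and 18 UMIs, in 1.86% and 5.88% of the cells, and its direction turned with 5 of the 8 genes required. *Il1b* was within 1.5-fold, at 1726 and 2221 CPM, a ratio of 0.777 (0.726 to 0.831). The cancer-promoting factor list of the study, which shares genes with these, had 5 of 7 lower with a median of −0.86. Its median was −0.09 in other macrophages and −1.06 in *Cd209a* dendritic cells. That list was drawn up by the study on this tumor model and is not independent evidence.

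The NF-κB list had 10 of 22 genes at least 1.5-fold lower in the control library and 0 higher, with a median log2 ratio of −0.48 and a summed ratio of 0.684. The median was −0.33 in other macrophages and −0.45 in *Cd209a* dendritic cells. *Nfkbia* and *Tnfaip3*, feedback inhibitors of the pathway, were at 266 and 653 CPM, a ratio of 0.407 (0.352 to 0.471), and at 109 and 269 CPM, a ratio of 0.405 (0.321 to 0.509). Immediate-early and heat shock genes, which also respond to tissue dissociation, were lower in 6 of 13 and higher in 0. *Junb* was at 1231 and 2236 CPM, a ratio of 0.551 (0.512 to 0.592), and the chaperone gene *Hsph1* had 26 and 50 UMIs, a ratio of 0.243 (0.145 to 0.398), and its log2 ratio went from −2.03 to −0.86 without the 5 cells richest in it. Their part in the NF-κB and cytokine differences was not tested. *Fos* was at 1687 and 1916 CPM, close between the libraries. The IL-4-response list had 6 of 10 genes lower and 0 higher with a median of −0.70. Its sum was 1395 and 2032 CPM, below the 4290 and 4243 of other macrophages. In *Cd209a* dendritic cells it was 2247 and 2216 CPM. The transglutaminase gene *Tgm2* was at 103 and 220 CPM, a ratio of 0.470 (0.368 to 0.601), and *Mrc1*, the mannose receptor gene CD206, at 533 and 688.

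Chemokine genes were mixed, with 1 of 14 at least 1.5-fold higher in the control library and 5 lower. *Ccl4*, which encodes the chemokine MIP-1β, was at 201 and 430 CPM, a ratio of 0.467 (0.392 to 0.556), and *Ccl2*, the CCR2 ligand, at 215 and 389, a ratio of 0.553 (0.464 to 0.659). Both rested on few cells, since 5 cells held 81.1% of the *Ccl4* UMIs and 72.4% of the *Ccl2* UMIs of the NK cell-depleted library. In the control library the shares were 40.2% and 36.7%. Without the 5 cells richest in each gene the log2 ratios turned to 0.49 and 0.25, a step that takes a larger share of the smaller library. *Cxcl16*, a ligand for CXCR6-bearing T and NK cells, was at 402 and 561 CPM, and *Cxcl2* at 1001 and 1077. *Pf4* was the higher one, at 151 and 78.2 CPM. *Cxcl10* and *Cxcl9*, attractants of CXCR3-bearing cells, had 71 and 22 UMIs and 21 and 12, and their intervals (0.923 to 2.55 and 0.384 to 1.82) included 1.

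Of 21 genes of glycolysis and the hypoxia response, 7 were at least 1.5-fold lower in the control library, 0 higher and 14 within 1.5-fold. The median log2 ratio was −0.42, and −0.13 with 5 of the 8 genes required. In other macrophages the median was 0.50, on the opposite side. The glucose transporter gene *Slc2a1* was at 99.7 and 227 CPM, a ratio of 0.440 (0.344 to 0.563), the hexokinase gene *Hk2* at 172 and 354, a ratio of 0.486 (0.402 to 0.589), and the prolyl hydroxylase gene *Egln3* at 34.2 and 79.9, a ratio of 0.429 (0.280 to 0.656). *Gapdh* was at 1745 and 1693 CPM and *Eno1* at 257 and 223. The respiratory chain list had 5 of 28 genes at least 1.5-fold higher in the control library and 0 lower, and its median was 0.28, with 0.29 in other macrophages. *Uqcrb*, a subunit of complex III, had 309 and 69 UMIs, a ratio of 2.09 (1.61 to 2.76).

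Monocyte genes had a median log2 ratio of 1.18, with 3 of 5 higher in the control library. *Vcan*, a proteoglycan gene of classical monocytes, had 54 UMIs in the control and 2 after NK cell depletion, a ratio of 12.6 (3.32 to 107). *Ly6c2* had 43 and 4 UMIs, a ratio of 5.02 (1.82 to 19.3), and *Plac8* 297 and 61, a ratio of 2.27 (1.72 to 3.05). *Ccr2* and the fibronectin gene *Fn1* were within 1.5-fold, at 1881 and 1765 CPM and at 1865 and 2014 CPM. *Vcan* was detected in 14.3% and 2.94% of the cells and *Ly6c2* in 13% and 5.88%. Without the cells holding either gene, 123 and 62 cells remained and the median was 0.05. That step takes both genes out of the list, so the fall of the median follows in part from the choice. It cannot show how widely the group difference was spread. The type I interferon median without the *Vcan* and *Ly6c2* cells was 1.10.

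**Figure D5:**
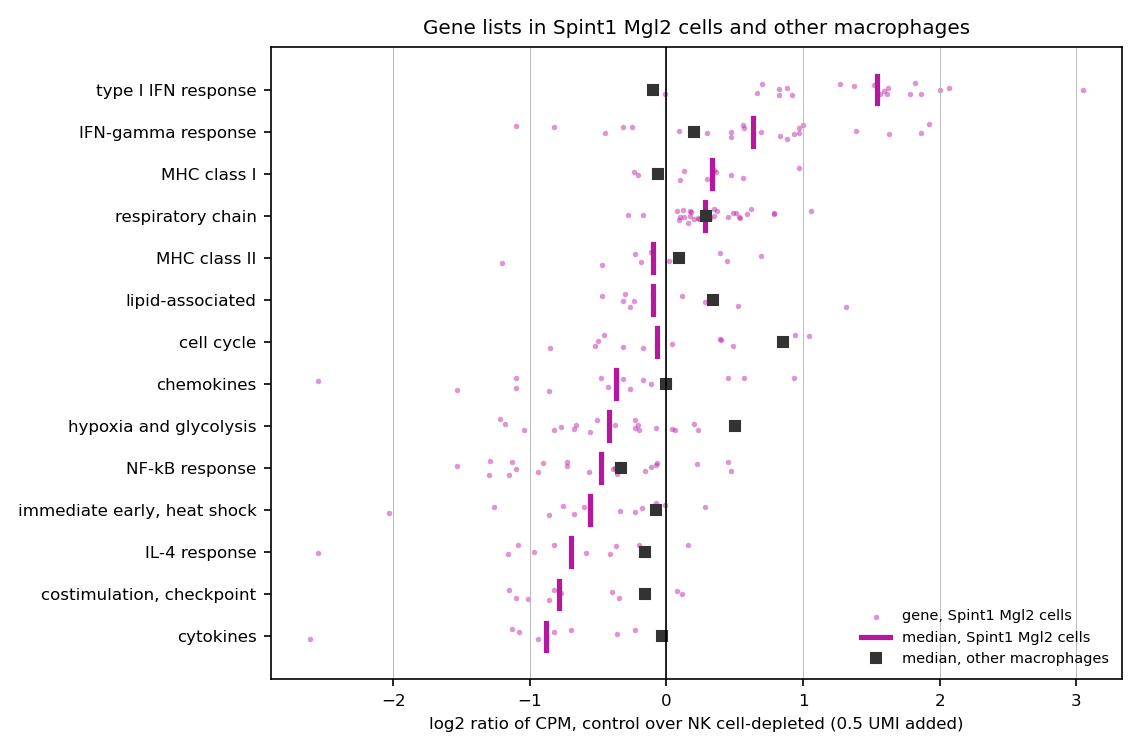
Log2 ratio of the control to the NK cell-depleted library in *Spint1 Mgl2* cells for the genes of 14 lists, with the median of each list in these cells and in other macrophages. The type I interferon list stands at 1.54 and 19 of its 20 genes were at least 1.5-fold higher, and the cytokine list at −0.88 with 6 of 8 lower.

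Macrophage, lipid-associated and resident macrophage lists had medians near 0, at 0.11, −0.10 and −0.11. Single genes of them departed from that. *Apoe* was at 805 and 334 CPM, a ratio of 2.41 (2.07 to 2.81). *Fabp5*, a fatty acid-binding protein gene, was at 163 and 65.2, a ratio of 2.5 (1.78 to 3.59). *Cd14*, the lipopolysaccharide co-receptor gene, was at 397 and 795, a ratio of 0.499 (0.441 to 0.566). The 5 cells richest in *Apoe* held 63.4% of its UMIs in the NK cell-depleted library, and without the 5 richest of each library its log2 ratio went from 1.27 to 2.10. In cells with 4 of the rule genes *Apoe* was at 1062 and 685 CPM, with 5 at 738 and 551, and with 6 or more at 531 and 23.4. Cells with 6 or more numbered 39 of 161 in the control library and 30 of 68 in the other. The part of this mix in the *Apoe* ratio was not tested. *Fcgr1*, an IFN-inducible Fc receptor gene, was at 110 and 55.4 CPM, a ratio of 1.98 (1.35 to 2.96). Of 5 markers of type 2 dendritic cells 4 were lower in the control library, among them the transcription factor gene *Irf4* at 43.4 and 84.7 CPM, a ratio of 0.512 (0.345 to 0.760), and *Clec10a*, a close copy of *Mgl2* whose reads may be divided with it, at 68.5 and 121. *Cd24a* was at 83.7 and 205 CPM. As given above, *Flt3*, *Zbtb46* or *Dpp4* were found in 12.4% of the cells from control hosts and 27.9% of those from depleted hosts. Without those cells the median of the type 2 dendritic cell markers went from −0.81 to −0.46. The median of conventional dendritic cell genes went from −0.39 to 0.22. *Flt3*, *Zbtb46* and *Dpp4* belong to that list and drop out with the cells, so its shift follows in part from the choice. Without the 5 cells richest in it, the log2 ratio of *Irf4* went from −0.97 to −0.20.

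The genes of the rule and their partners were measured in cells chosen for them, so their levels are a description. *Spint1* was at 233 and 225 CPM, *Htra3* at 152 and 165 and *Mgl2* at 784 and 924, all within 1.5-fold. *Klrb1b* was at 117 and 196 CPM, *Cdh1* at 67.7 and 145 and *Ccl17* at 105 and 344, the last of these resting on single cells as described. *Cdh1* rested on few cells too, as 57.3% of its UMIs in the NK cell-depleted library lay in 5 cells and its log2 ratio went from −1.10 to −0.32 without the 5 richest of each library. Among genes that bind E-cadherin, *Jup*, which encodes plakoglobin, was at 44.1 and 101 CPM, a ratio of 0.437 (0.30 to 0.635), and was detected in 19.9% and 45.6% of the cells, and *Ctnna1* was at 110 and 143. *St14*, the matriptase inhibited by the *Spint1* product, was barely seen, with 3 UMIs and 1 UMI. *Mmp12*, the macrophage elastase, was at 1198 and 1789 CPM, a ratio of 0.669 (0.619 to 0.724), against 544 and 557 CPM in other macrophages. The colony-stimulating factor receptor gene *Csf2rb* was at 419 and 502 CPM against 201 and 158.

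By size of difference among genes with at least 50 UMIs whose interval left out 1, the 12 genes highest in the control library were *Vcan*, *Isg15*, *Rnaseh2c*, *Gbp3*, *Ddx58*, *Gm26802*, *Gm21188*, *Rsad2*, *Bmyc*, *Ighm*, *Sap18* and *Slfn5*, with log2 ratios from 1.52 to 3.35. Among the 12 lowest were *Lyz1*, *Ccl22*, *Slc7a2*, *Rgcc*, *Hsph1*, *Fam46c*, *Slc30a4*, *P2ry10*, *Dcstamp*, *Ccl17* and *Grasp*, from −2.85 to −1.62. *Dcstamp* was detected in 21.1% and 41.2% of the cells with 77 and 118 UMIs, a ratio of 0.305 (0.226 to 0.409), and *Il1r2* in 41.6% and 54.4% with 278 and 271 UMIs, a ratio of 0.479 (0.404 to 0.568). Without the 5 cells richest in it, the log2 ratio of *Slc7a2*, an amino acid transporter gene, went from −2.50 to −0.37. *Slc30a4*, a zinc exporter gene, was detected in 11.2% and 33.8%. *Lyz1* is a near-identical copy of *Lyz2*, and its 13 and 45 UMIs are uncertain for that reason.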

How the data were processed

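UMI counts per gene and cell were deposited by the authors as 10x Genomics matrices of 31053 genes, 1 per group, unnormalized, with no cell annotation. The file headers name Cell Ranger 3.0.2, and the submitters' processing notes name bcl2fastq, Cell Ranger and the mm10 build. The matrices were read with Python 3.11.15, numpy 2.4.6, scipy 1.17.1 and pandas 2.3.3.

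Cells were kept with 500 to 15000 UMIs, with 200 to 4000 genes detected, and with a mitochondrial share of up to 10%, 5292 and 4506 of them, with a median of 4170 and 4893 UMIs. Of their barcodes 5 were shared by both libraries and 0 of those belonged to *Spint1 Mgl2* cells. Scrublet in scanpy 1.11.5 marked 0 and 3 cells, too few to have worked, so doublets were kept and cells with 2 or more UMIs of other lineages' markers were left out in an alternative. UMIs were summed over cells per library and scaled to CPM. Log2 ratios had 0.5 UMI added, and genes needed 20 UMIs over both libraries. Intervals are exact conditional binomial for ratios and Clopper-Pearson for shares. Scripts were tested on simulated data.

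Named genes were the 8 rule genes, the 15 highest and 10 lowest against other macrophages, the 12 highest and 12 lowest between libraries among genes with 50 UMIs and an interval without 1, and, from each list, up to 4 genes with the most UMIs and those past 1.5-fold beyond counting error. Genes outside this were named after their values were seen. The members and the 42 gene lists were chosen with earlier results of these data known. Some genes that the rule names are not reported here.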

Additional observations from a re-analysis of the deposited data

Results flagged for a closer look

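Cells above the upper limits of 15000 UMIs or 4000 genes lay outside every comparison. Of 212 such cells in the control library 12 (5.66%) met the gene rule, and of 353 in the NK cell-depleted library 6 (1.70%) did.

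For 27 named genes the log2 ratio of the control to the NK cell-depleted library had opposite signs in *Spint1 Mgl2* cells and in other macrophages, beyond counting error in both. The difference between the populations was not tested, since each has 1 library per group. Some of these genes were named because they were extreme in the *Spint1 Mgl2* cells, which can raise the count. The share with opposite signs over all genes was not counted, so 27 has no background. Some rested on few cells, as 5 cells held 91.0% of the *Slc7a2* UMIs and 65.5% of the *Rgcc* UMIs of the depleted *Spint1 Mgl2* cells. Higher in the control library in *Spint1 Mgl2* cells, and lower in other macrophages, were *Vcan* at 3.35 (−0.15 in other macrophages), *Gm21188* at 1.61 (−0.32), *Ighm* at 1.55 (−0.58), *Slfn5* at 1.52 (−0.15), *Ly6c2* at 2.17 (−0.68), *Irgm1* at 1.92 (−0.23), *Plac8* at 1.18 (−0.20), *Lyz2* at 0.55 (−0.25) and *H2-Ab1* at 0.06 (−0.10). The reverse held for *Slc7a2* at −2.50 (0.30), *Rgcc* at −2.04 (0.15), *Hsph1* at −2.03 (0.20), *Dcstamp* at −1.71 (0.68), *H2-Oa* at −1.20 (1.59), *Tgm2* at −1.09 (0.26), *Vegfa* at −0.82 (0.53), *C1qa* at −0.51 (0.04), *Cxcl16* at −0.48 (0.68) and *Csf2rb* at −0.26 (0.35). Among them were also *Egln3* at −1.22 (0.65), *Slc2a1* at −1.18 (0.35) and *Hk2* at −1.04 (0.14) of the glycolysis and hypoxia list.

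It held for the rule genes too, with *Ccl17* at −1.71 (3.44), *Klrb1b* at −0.74 (1.49), *H2-DMb2* at −0.51 (0.59), *Itgax* at −0.33 (0.96) and *Mgl2* at −0.24 (0.44). Their levels in other macrophages are set in part by the rule, which takes the cells rich in them away.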

How the results depend on the processing

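The alternatives that leave out cells with monocyte genes, with dendritic cell genes or with the most UMIs of a list, and those that ask for 3 macrophage genes or thin to 4000 UMIs, were chosen after seeing the data. The control library had the higher share of *Spint1 Mgl2* cells under all 14 alternatives run, one of which, doublet removal, removed next to nothing. Of 322 alternatives over 30 list medians, 271 stayed within the counting error and 51 moved. The sign changed in 22 of them, over 10 lists whose medians lay within counting error of 0 (at most 0.39 in size, for conventional dendritic cell genes). Of 485 over 97 named genes, 390 stayed within the counting error, 86 moved and 9 changed sign from a ratio beyond counting error. Another 12 changed sign from ratios within it, among them *Cxcl9*, *Ccr2*, *Csf1r* and *Spint1*. The cause of these moves was not tested except where cells or genes were left out by construction. Thinned to 2000 UMIs, 397 genes were higher and 620 lower. With at least 50 UMIs the counts were 332 and 466, and with at least 1 UMI 1870 and 2476. With 20 CPM added, 59 genes were higher and 135 lower against other macrophages. Thinning gave list medians of 0.04 for MHC class II, −0.31 for IL-4, 0.91 for type I interferon over 4 genes and 0.37 for the respiratory chain. Without cells holding other lineages' markers, medians were −0.44 for IL-4, 1.15 for type I interferon, −0.24 for hypoxia and −0.29 for NF-κB. Without *Flt3*, *Zbtb46* or *Dpp4* cells they were −0.44 for IL-4, 0.35 for the respiratory chain and −0.30 for NF-κB. Type I interferon was 1.10 without *Ly6c2* and *Vcan* cells. IL-4 was −0.50 with 1 UMI as the minimum. Hypoxia was −0.13 with 5 of 8 genes required. Without the 5 cells with the most UMIs of the list, hypoxia was −0.29 and NF-κB −0.33, and with 3 macrophage genes NF-κB was −0.62. Of ratios beyond counting error, those that turned were *Ccl17* (1.09), *Ccl22* (1.65), *Ccl2* (0.25), *Ccl4* (0.49) and *Fn1* (0.11) without the 5 cells with the most UMIs of the gene, *Cd86* (0.08) after thinning, *Il6* with 5 of 8 genes (0.94) and with 3 macrophage genes (0.24), and *H2-Ab1* (−0.01) with 3 macrophage genes. Leaving out those 5 cells took the ratios of several interferon genes up, as for *Isg15* (5.13) and *Rsad2* (2.92). The 5 richest cells held 100% of the *Isg15*, *Rsad2* and *Ccl22* UMIs of the depleted library, so nothing was left there to compare. Taking 5 cells from each library removes a larger share of 68 cells than of 161. Ratios of this kind can be tilted toward the control library for that reason. Low counts in 68 cells limit genes under 20 UMIs. No paired analysis was possible because each group is 1 library.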
